A study of Mus musculus with 8 samples.

Results

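The S100 genes encode small calcium-binding proteins, and their RNA on the ribosomes of Müller cells was compared between wild-type mice and mice lacking Nrf2 in these cells. The members were the rows of the deposited table whose symbol is S100b or S100a followed by digits. Of the 15 such genes in the GENCODE annotation, 8 were among the 12339 genes of the table: S100b, S100a1, S100a4, S100a6, S100a10, S100a11, S100a13 and S100a16. The other 7 (S100a2, S100a3, S100a5, S100a7a, S100a8, S100a9 and S100a14) were not in it, and its lowest mean over the libraries was 2.001 FPKM. FPKM are fragment counts divided by transcript length and by library size. The lengths used are not given, so levels can be set side by side between genes only roughly.

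The samples were 8 mouse retina libraries from postnatal day 14 (P14) of oxygen-induced retinopathy (OIR), a model in which pups are kept in high oxygen and the inner retina is short of oxygen after their return to room air. There were 4 libraries of genotype WT and 4 of genotype Muller-specific Nrf2 cKO, numbered 1, 3, 4 and 5 in each group. All came from OIR at the same age, so there was no group in room air. The libraries were made by RiboTag, in which a tagged ribosomal protein, expressed where Cre is active, is used to pull down ribosomes with their RNA. The labels do not give the Cre driver, the deleted exon, the strain, the sex or whether a sample was 1 animal, so p-values measure only the spread between these samples, which may be technical.

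S100 proteins carry a pair of EF-hands, loops that hold calcium, and mostly act as dimers. Calcium opens a surface on the dimer that docks onto other proteins, among them annexins, filament proteins, kinases and p53. Several members are also released from cells and bind receptors such as RAGE, encoded by Ager. S100b is a classical marker of astrocytes and is also made by Müller cells, the radial glia that span the retina, while S100a6, S100a4, S100a10 and S100a11 are known from growing, migrating and injured cells.

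Of the 8 genes, 7 lie on chromosome 3 of GRCm38 and 1, S100b, on chromosome 10 (chr10:76253853-76261159, plus strand). On chromosome 3 they form a pair of groups. The first group holds S100a1 (chr3:90511034-90514392, minus strand), S100a13 (chr3:90514435-90524581, plus strand), S100a16 (chr3:90537254-90543151, plus strand), S100a4 (chr3:90603771-90606045, plus strand) and S100a6 (chr3:90612882-90624181, plus strand). S100a1 and S100a13 are transcribed away from each other, with 42 bases between their annotated starts. The second group holds S100a11 (chr3:93520488-93526287, plus strand) and S100a10 (chr3:93555080-93564643, plus strand). The exons of S100a4 overlap those of Gm42674, a gene model on the same strand that also covers exons of S100a3, so fragments of S100a4 could have been divided between the 2 models. The locus that the table gives for S100a4 also covers S100a3, so its value could include fragments of S100a3. For S100b and S100a4 the table gives a locus of 91439 and 45490 bases, which is more than the gene in GENCODE (7307 and 2275 bases). The value of S100b could therefore also include fragments from outside the gene.

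The sequence before the annotated start is shown for the 3 genes that passed the test of cKO against WT when the libraries were paired, and for S100a16, which had a match to the core of the antioxidant response element, the DNA element to which Nrf2 binds. The sequences are from RefSeq (GRCm38.p6), run 5′ to 3′ on the strand of the gene and end before the first annotated exon. Capitals mark matches to 5 motifs searched on both strands, and S100b and S100a6 had none.
S100b, chr10:76253586-76253835, plus strand: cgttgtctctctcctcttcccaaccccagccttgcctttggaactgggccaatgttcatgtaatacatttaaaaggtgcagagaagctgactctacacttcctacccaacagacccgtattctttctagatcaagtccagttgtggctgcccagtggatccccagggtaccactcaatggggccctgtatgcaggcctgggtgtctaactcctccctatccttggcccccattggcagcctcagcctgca
S100a6, chr3:90612644-90612881, plus strand: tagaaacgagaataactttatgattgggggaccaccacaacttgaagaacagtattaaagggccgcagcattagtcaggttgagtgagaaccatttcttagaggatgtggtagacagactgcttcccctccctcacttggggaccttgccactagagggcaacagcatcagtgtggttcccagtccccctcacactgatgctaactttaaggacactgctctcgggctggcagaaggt
S100a4, chr3:90603520-90603769, plus strand: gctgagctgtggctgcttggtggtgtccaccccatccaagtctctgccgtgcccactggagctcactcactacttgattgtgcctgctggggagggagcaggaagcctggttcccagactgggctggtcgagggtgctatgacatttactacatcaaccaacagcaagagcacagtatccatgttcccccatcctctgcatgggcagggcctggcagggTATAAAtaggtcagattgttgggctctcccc
S100a16, chr3:90537004-90537253, plus strand: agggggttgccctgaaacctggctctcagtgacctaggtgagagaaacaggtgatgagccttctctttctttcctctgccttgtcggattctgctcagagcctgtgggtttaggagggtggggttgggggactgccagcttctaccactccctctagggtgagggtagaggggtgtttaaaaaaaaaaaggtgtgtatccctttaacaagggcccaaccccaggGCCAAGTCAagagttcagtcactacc

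The capitals of S100a4 are a TATA box (TATAAA), at bases −31 to −26 before the start. The capitals of S100a16 are the core of the antioxidant response element (TGACNNNGC) read on the other strand, at −26 to −18. The other motifs searched were the AP-1 site (TGANTCA), the STAT site (TTCNNNGAA) and the GC box (GGGCGG). TGACNNNGC and TGANTCA can overlap, since both open with the same 3 letters. Windows from 250 bases before to 50 after the start were held for 7 of the 8 genes, 8 windows in all, and not for S100a10. The antioxidant core was in 1 of these 8 windows and in 12.4% of all 32817 windows. The AP-1 letters were in 2 of 8 (S100a11 and a second start of S100a16, 7.81% of all windows), the STAT letters in 0 of 8 (8.29%), the TATA box in 1 of 8 (13.6%) and the GC box in 2 of 8 (S100a11 and the same start of S100a16, 35.6%). A match is a description of the letters and not a binding site.

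The comparison asked which RNAs differed on Müller cell ribosomes without Nrf2, a transcription factor that activates antioxidant genes. Nfe2l2, which encodes Nrf2 (chr2:75675513-75704641), was at 17.5, 18.8, 23.1 and 17.5 FPKM in WT 1, 3, 4 and 5 and at 12.7, 16.5, 14.8 and 10.4 in cKO 1, 3, 4 and 5. All 4 cKO libraries were below the lowest WT library (log2 difference −0.50; p = 0.0286 in an exact permutation test, two-sided, which is the lowest possible with 70 assignments). That test shuffled the labels over all 8 libraries and did not use the pairing by number described below. In limma the adjusted p of Nfe2l2 was 0.453 without pairing and 0.0219 with the libraries paired by number. The FPKM value covers the whole gene, including exons that were not deleted.

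FPKM summed to between 410581 and 448130 per library. The 15 Müller cell markers checked were all in the table, with summed levels of 10903 to 18684 FPKM in WT and 12048 to 16577 in cKO. Rod markers (10 of 10 in the table) summed to 3366 to 5358 and 3617 to 5480 FPKM, so the libraries also held RNA of other cells. Of neutrophil markers 0 of 9 were in the table, of microglia and macrophage markers 1 of 13, of endothelial markers 3 of 10, and of Schwann and oligodendrocyte markers 2 of 9. Xist, expressed in females, was at 25.0 to 72.1 FPKM in 6 libraries and at 0.0863 and 0.00505 in cKO 4 and cKO 5.

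All 8 S100 genes had a higher mean log2 level in cKO than in WT, and none of them passed the test when the libraries were treated as unpaired. Differences are in log2(FPKM + 0.5), cKO minus WT. They ranged from 0.20 (S100a1) to 0.86 (S100a6), with a median of 0.38 beside 0.0036 over all genes. Of all genes 50.7% had a higher mean in cKO. The 7 members of chromosome 3 varied together between libraries (r of at least 0.762), so the 8 differences are not independent. S100 transcripts are short, and other short transcripts also had a higher median level in cKO than in WT of the same number. Their values and a correction for length are given below. In limma without pairing, 0 of 8 members passed an adjusted p of 0.05, as did 0 of all 12339 genes (0%). At an unadjusted p under 0.05 there was 1 member, S100b, and 3.95% of all genes were higher in cKO by that measure and 10.6% differed in either direction.

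Libraries of the same number deviated together across genes (r from 0.261 to 0.591 after group means were removed), so a second fit kept the number as a block, which compares cKO with WT within each pair. In that fit S100a4, S100a6 and S100b rose, 3 of 8 members, where 2.99% of all genes rose and 10.6% changed in either direction. The other 5 did not pass, with adjusted p between 0.0876 (S100a13) and 0.224 (S100a16). Of the 3, none passed in every fit that left out 1 pair, while 324 of all genes did (2.63%), beside 1305 that passed with all 4 pairs. In 0 of 8 members did all cKO values lie above all WT values (2.06% of all genes), and in 0 of 8 did they all lie below (2.28%). By pair, 4 of 8 were higher in cKO in all 4 pairs (16.7% of all genes).

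**Figure D1:**
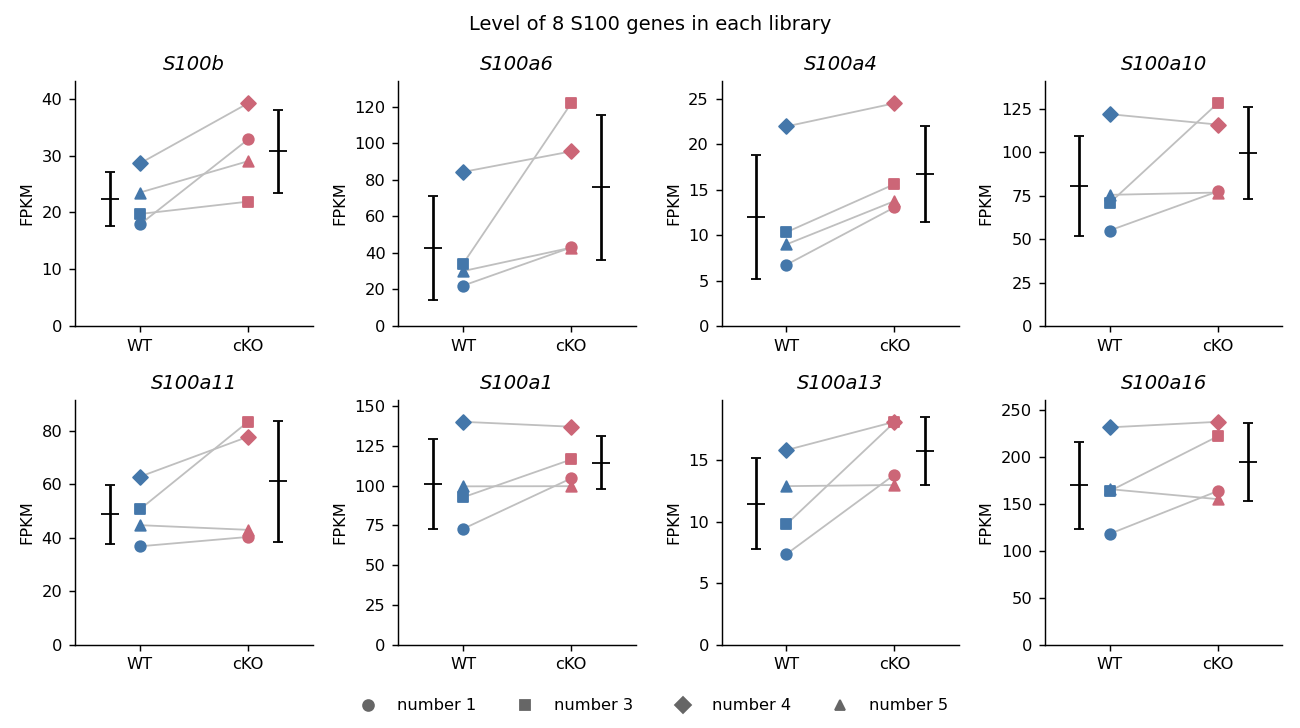
FPKM of each S100 gene in the 4 WT (blue) and 4 cKO (red) libraries, with a grey line joining libraries of the same number; black bars give the mean and SD of each group, and axes start at 0. WT 4 is the highest WT library for all 8 genes, and the groups overlap in each panel.

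S100a6, or calcyclin, which binds the ubiquitin-ligase adaptor Cacybp and the annexin Anxa11, had the largest difference of the family in the fits of all 8 libraries. Without cKO 3 the unpaired difference of S100b was as large (0.59 against 0.58), and with the block and without pair 3 that of S100a4 was (0.55 against 0.54). It was at 22.1, 34.1, 84.3 and 30.1 FPKM in WT 1, 3, 4 and 5 and at 43.0, 122, 95.5 and 42.9 in cKO 1, 3, 4 and 5. WT 4 stood above both cKO 1 and cKO 5, while the other 3 WT libraries lay below all cKO libraries. The means were 42.6 ± 28.2 and 75.8 ± 39.5 FPKM (SD, n = 4 each), and the log2 difference was 0.86 (SE 0.44, adjusted p = 0.489, and SE 0.23, adjusted p = 0.0499 with the block). By pair it was 0.94, 1.82, 0.18 and 0.51 for numbers 1, 3, 4 and 5. The call with the block was lost without pair 1 (adjusted p = 0.163), pair 3 (0.0700) or pair 5 (0.0789) and kept without pair 4 (0.0423). Without WT 4 the unpaired difference was 1.25, and without cKO 3 it was the 0.58 given above.

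S100b, the glial S100 protein, which binds GFAP, p53 and the kinase Stk38, was at 17.9, 19.7, 28.6 and 23.5 FPKM in WT 1, 3, 4 and 5. In cKO 1, 3, 4 and 5 it was at 32.8, 21.9, 39.2 and 29.0 FPKM. The lowest cKO library, cKO 3, lay below WT 4 and WT 5, and the other 3 cKO libraries lay above all WT libraries. The means were 22.4 ± 4.74 and 30.7 ± 7.24 FPKM (SD, n = 4 each), a log2 difference of 0.44 or 35.5% (adjusted p = 0.469, and 0.0467 with the block). By pair the difference was 0.86, 0.15, 0.45 and 0.30. With the block the adjusted p was 0.120, 0.128 and 0.0807 without pairs 1, 4 and 5, and 0.0470 without pair 3.

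S100a4, known as metastasin, which binds nonmuscle myosin and slows its filament assembly, was at 6.73, 10.3, 21.9 and 8.97 FPKM in WT 1, 3, 4 and 5. It was at 13.05, 15.6, 24.5 and 13.7 FPKM in cKO 1, 3, 4 and 5. Again WT 4 reached into the cKO range and the other WT libraries did not. The means were 11.99 ± 6.80 and 16.7 ± 5.29 FPKM (SD, n = 4 each), with a log2 difference of 0.56 (adjusted p = 0.516, and 0.0262 with the block). By pair it was 0.91, 0.57, 0.15 and 0.59, and the adjusted p with the block was 0.0963, 0.0791 and 0.0725 without pairs 1, 3 and 5 and 0.0246 without pair 4. Its unpaired difference was 0.88 without WT 4 and 0.34 without WT 1.

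S100a13, which takes part in the release of the growth factor Fgf1 outside the classical secretory route, was at 7.36, 9.80, 15.8 and 12.9 FPKM in WT and at 13.8, 18.1, 18.2 and 12.9995 in cKO (numbers 1, 3, 4 and 5). WT 4 lay above cKO 1 and cKO 5. Its log2 difference of 0.48 (95% interval with the block 0.12 to 0.84) had an adjusted p of 0.470, and of 0.0876 with the block. The pairs with numbers 1 and 3 differed by 0.87 and 0.85, and those with numbers 4 and 5 by 0.19 and 0.0097. Its unpaired difference was 0.30 without WT 1 and 0.65 without WT 4.

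S100a10 and S100a11 are partners of annexins at the membrane, S100a10 of Anxa2 and S100a11 of Anxa1, and S100a10 has lost the ability to bind calcium. S100a10 was at 54.9, 70.6, 122 and 75.4 FPKM in WT and at 77.3, 128, 116 and 76.7 in cKO. S100a11 was at 36.8, 50.7, 62.9 and 44.7 FPKM in WT and at 40.3, 83.5, 77.9 and 43.0 in cKO. For S100a10 only cKO 3 left the WT range. In both genes cKO 3 and cKO 4 were the highest cKO libraries, and cKO 1 and cKO 5 stayed within the WT range. Their differences of 0.32 and 0.27 did not pass (adjusted p = 0.614 and 0.675, and 0.184 and 0.168 with the block), and the 95% intervals with the block were −0.0071 to 0.66 and 0.0054 to 0.54. The unpaired difference of S100a10 was 0.16 without WT 1 and 0.54 without WT 4, and that of S100a11 was 0.099 without cKO 3 and 0.45 without cKO 1.

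S100a16 and S100a1 were the most abundant members, S100a16 above 97.3% and S100a1 above 94.6% of all genes by mean level. S100a1, which acts on calcium handling through the pump Atp2a2 and ryanodine receptors, was at 72.8, 92.7, 140.2 and 99.6 FPKM in WT and at 105, 116, 137 and 99.7 in cKO. S100a16 was at 118, 163, 231 and 165 FPKM in WT and at 163, 222, 237 and 155 in cKO. For S100a1 all cKO values lay within the WT range, and for S100a16 all except that of cKO 4. The log2 differences were 0.20 and 0.21, with 95% intervals with the block of −0.023 to 0.43 and −0.027 to 0.45 (adjusted p = 0.218 and 0.224 with the block). Without WT 1 the unpaired differences were 0.060 and 0.052, and without WT 4 they were 0.37 and 0.38.

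In order of mean FPKM over the 8 libraries the members were S100a16 (182), S100a1 (108), S100a10 (90.1), S100a6 (59.2), S100a11 (55.0), S100b (26.6), S100a4 (14.4) and S100a13 (13.6). In each pair of neighbours in this order the ranges over the libraries overlapped. The transcript lengths behind the FPKM are not given, which limits this order. In WT the mean of S100a6 was below that of S100a11 (42.6 against 48.8 FPKM), and in cKO above it (75.8 against 61.2).

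**Figure D2:**
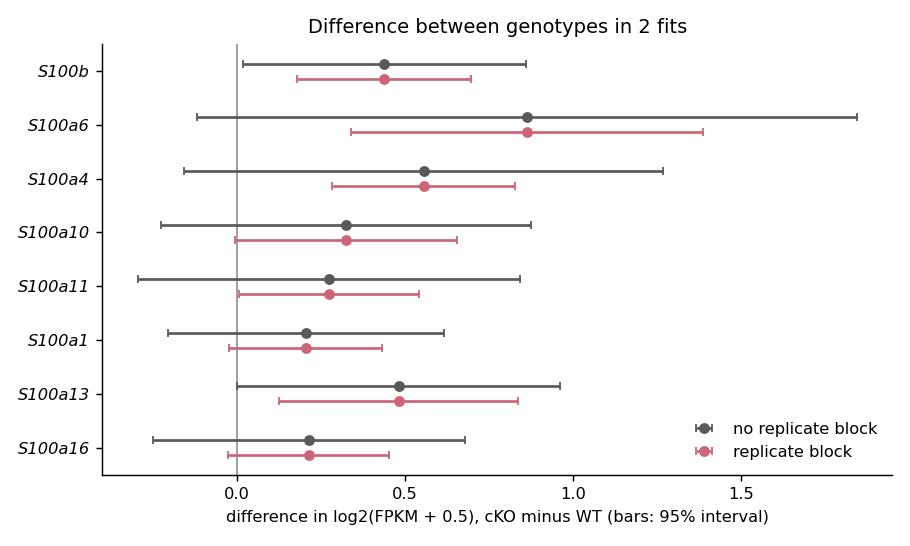
Difference in log2(FPKM + 0.5), cKO minus WT, for each S100 gene (points) with its 95% interval (bars), in the fit without pairing (grey) and with the replicate number as a block (red). The points are the same in both fits, and the red intervals of S100b, S100a6, S100a4, S100a11 and S100a13 lie above 0.

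The S100 genes of chromosome 3 varied together from library to library, within both genotypes. Summed over the 8 members the level was 336, 451, 707 and 460.5 FPKM in WT 1, 3, 4 and 5 and 488, 727, 745 and 473 in cKO 1, 3, 4 and 5. WT 1 was the lowest and WT 4 the highest WT library for 8 of 8 members, where WT 1 was the lowest for 22.7% and WT 4 the highest for 27.6% of all genes. The highest cKO library was cKO 3 or cKO 4 for each member. The coefficient of variation was 66.2% in WT and 52.0% in cKO for S100a6, 56.7% and 31.7% for S100a4 and 22.5% and 37.1% for S100a11, beside medians of 14.6% and 12.6% over all genes.

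Over the 8 libraries, which share genotype, pairing and library effects, Pearson's r of log2 levels was 0.977 between S100a6 and S100a10, 0.972 between S100a10 and S100a16, and 0.963 between S100a1 and S100a16. The lowest r between members of chromosome 3 was 0.762 (S100a11 and S100a4). For the 4 differences within pairs the same genes had an r of −0.217, S100a1 and S100a11 had 0.261, and S100a6 and S100a10 had 0.979. S100b stood further off, with r from 0.304 (S100a11) to 0.777 (S100a4), and it was low in cKO 3, the library with the highest S100a6, S100a10 and S100a11. These r are descriptions of 8 points that are not independent, or of 4 differences.

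**Figure D3:**
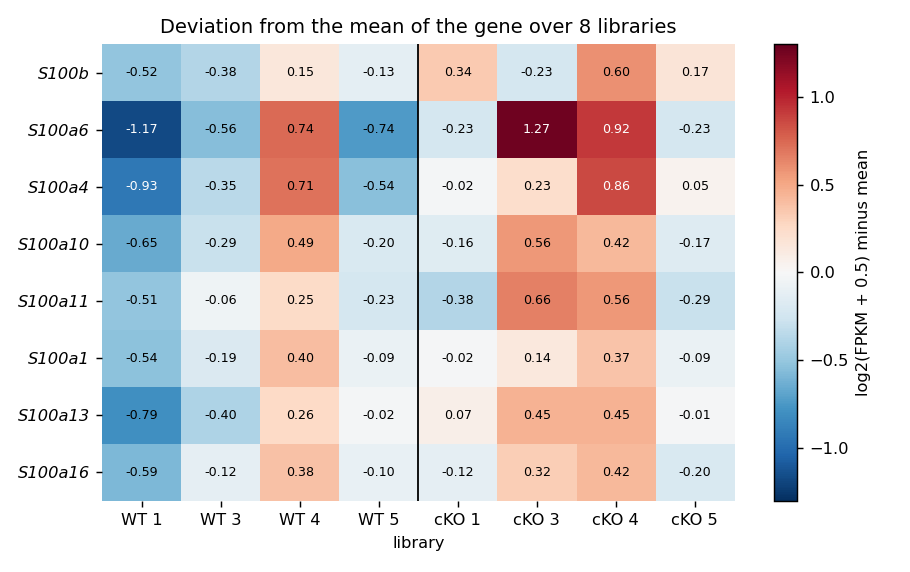
Deviation of log2(FPKM + 0.5) from the mean of each gene over the 8 libraries (colour and printed value), with genes in rows and libraries in columns. WT 1 is below the mean and WT 4 and cKO 4 are above it in every row, and cKO 3 is above it in every row except S100b (−0.23).

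By the same measure, the genes most like S100a6 were Nupr1, a stress-induced chromatin protein (r = 0.986), Cebpd, a transcription factor of the acute phase (0.986), Rgma (0.985), Sdc4 (0.984) and Fzd1 (0.983). Nupr1 was at a mean of 17.98 FPKM in WT and 37.4 in cKO and rose with the block (1.01, adjusted p = 0.0494), while Cebpd did not pass (0.78, adjusted p = 0.0699). The genes most like S100b were Eci1, an enzyme of fatty acid breakdown (r = 0.992), Sec61b, a subunit of the ER translocon (0.971), Myl12b (0.971), Lsm3 (0.971) and Cd3eap (0.970). Of these only Lsm3 rose with the block (0.38, adjusted p = 0.0172). The genes most like S100a4 were Cryz, Ntpcr, Fxyd1, Scpep1 and the metallothionein Mt1 (r from 0.991 to 0.978), and Mt1 rose with the block (0.62, adjusted p = 0.00948).

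S100a10 was followed by Tppp3 (r = 0.996), Rras, Clic1, Vim and Bag3 (0.983), and S100a16 by Abhd4 (0.989), Tspo, Vim, E2f1 and Phlda3 (0.985). Vim, the intermediate filament of Müller cells, was thus near both, with a WT mean of 1174 FPKM and a cKO mean of 1347 (0.23, adjusted p = 0.369 with the block). S100a11 was followed by Sspn (0.994), F3, Tgfa, Efemp2 and Shisa5 (0.971), S100a1 by Cyb5r3 (0.988), Npc2, Cnn3, Slc39a1 and Cavin3 (0.974), and S100a13 by Arhgdia (0.987), Copg2, Tnnc1, Mpc1 and Tmem159 (0.969). Among the genes of this paragraph, Tnnc1, a troponin with EF-hands, was the one that passed with the block (0.58, adjusted p = 0.0339). The genes of this and the preceding paragraph were chosen for likeness over the same libraries, genotype difference included. Their calls are therefore not independent of the values of the members. Of all genes 10.6% were called with the block.

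Of the proteins that S100 dimers bind, the filament and membrane partners went both ways. With the block 1 of 18 measured rose and 3 fell (10.6% of all genes were called), with a median difference of 0.0046 beside 0.0036 over all genes. Gfap, the glial filament protein whose assembly S100b limits, was at 56.3, 89.4, 166 and 55.3 FPKM in WT 1, 3, 4 and 5 and at 155, 304, 241 and 174 in cKO. WT 4 was its highest WT and cKO 3 its highest cKO library, as for S100a6, and it rose by 1.35 (adjusted p = 0.00521 with the block). The S100a4 partners Myh9 and Myh10, heavy chains of nonmuscle myosin, fell by 0.60 and by 0.62 on the log2 scale (adjusted p = 0.0141 and 0.00377), and so did the scaffold Iqgap1 (−0.45, adjusted p = 0.0436). The groups did not overlap for Myh10, with 47.3 to 63.1 FPKM in WT and 27.7 to 41.2 in cKO.

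Anxa2, which forms a complex with S100a10, was at 18.4, 21.04, 40.1 and 21.9 FPKM in WT and at 29.4, 70.3, 47.8 and 24.02 in cKO. The order of its libraries resembled that of S100a10, with WT 4, cKO 3 and cKO 4 high, and its difference of 0.69 did not pass (adjusted p = 0.482, and 0.0965 with the block). Of the 7 annexins measured 0 passed (limma, in both fits, and 0 at an unadjusted p under 0.05 without the block), with a median of −0.016. Of all genes 10.6% passed with the block, 0% without it and 10.6% at that unadjusted p, so 0 of 7 cannot set the annexins apart. Anxa1, the partner of S100a11, differed by −0.14 (adjusted p = 0.295 with the block), and Anxa11, a partner of S100a6, by −0.018 at a low mean level of 2.56 FPKM in WT and 2.53 in cKO. Ahnak, which binds the complex of S100a10 and Anxa2, was not in the table.

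Among signalling and folding partners 1 of 17 rose with the block and 3 fell (2.99% and 7.59% of all genes), with a median of 0.030. Sugt1, a cochaperone that binds S100a6, rose by 0.27 (adjusted p = 0.0400), and Cacybp, the other S100a6 partner of this kind, had a WT mean of 40.7 ± 5.23 FPKM and a cKO mean of 48.3 ± 7.02 (SD, n = 4 each) without passing (adjusted p = 0.0585). The kinase Stk38 (−0.30, adjusted p = 0.0333), the p53 inhibitor Mdm4 (−0.63, adjusted p = 0.00628) and the calcium release channel Ryr2 (−0.67, adjusted p = 0.0231) fell. Of the receptors for released S100 proteins and the factors downstream of them, 0 of 11 measured passed in limma with or without the block, and 0 had an unadjusted p under 0.05 without it. Over all genes 10.6% passed with the block, 0% without it, and 10.6% had an unadjusted p under 0.05 without it. A count of 0 among 11 cannot set this list apart from these shares. The median of the list was 0.046. Ager, Tlr2 and Tlr4 were not in the table. The smallest p was that of Cd36, a scavenger receptor (−0.55, adjusted p = 0.0983 with the block), followed by Fgfr1 (0.16, adjusted p = 0.192), Myd88 (0.21, adjusted p = 0.193) and Diaph1 (−0.26, adjusted p = 0.207).

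The wider family of EF-hand proteins outside the S100 genes was measured with 48 of 57 listed genes. With the block 7 rose and 1 fell, where 2.99% of all genes rose and 7.59% fell, and the median difference was 0.15. Of the 48 genes, 34 had a higher mean in cKO, beside 50.7% of all genes. Cabp2, a calcium sensor of bipolar cells, was at 17.9 to 20.7 FPKM in WT and at 22.3 to 35.8 in cKO, with no overlap (0.62, adjusted p = 0.00679). Cabp5 (0.33), Scgn (0.37), Necab2 (0.38), Kcnip2 (0.46) and Efhd2 (0.28) were among the others that rose, with adjusted p between 0.0147 and 0.0425, and Calb2, calretinin of amacrine and ganglion cells, fell (−0.35, adjusted p = 0.0270). In cKO 3 Cabp2, Cabp5, Kcnip2 and Scgn had their lowest cKO value, whereas S100a6 had its highest.

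**Figure D4:**
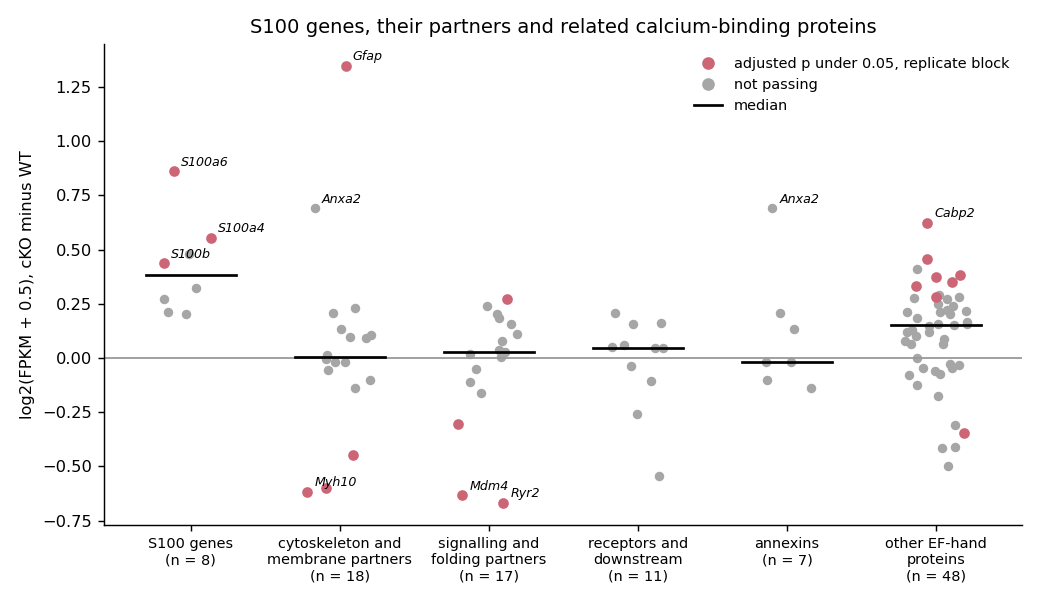
Difference in log2(FPKM + 0.5), cKO minus WT, of the S100 genes and of the measured genes of 5 lists (1 point per gene; red, adjusted p under 0.05 with the replicate block; black line, median of the list). All 8 S100 genes lie above 0. The partner, receptor and annexin lists have medians between −0.016 and 0.046. The list of other EF-hand proteins has a median of 0.15, with 34 of 48 genes above 0.

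Markers of some other cells moved with genotype too, beside 2.99% of all genes that rose and 7.59% that fell with the block. Bipolar cell markers summed to 2336 to 2937 FPKM in WT and 2897 to 3603 in cKO, and 5 of 10, Cabp5 among them, rose with the block. Ganglion cell markers summed to 71.0 to 96.9 and 52.4 to 73.8 FPKM (4 of 7 measured fell), amacrine and horizontal cell markers to 211 to 242 and 163 to 206 (3 of 7 fell), and cone markers to 426 to 517 and 482 to 528 (4 of 8 fell). Astrocyte markers summed to 497 to 848 and 657 to 952 FPKM (Gfap rose, 1 of 6 measured; Pax2, Gjb6 and Fam107a were not in the table), Müller cell markers gave 2 of 15 that fell (Aqp4 and Abca8a), and of pericyte and smooth muscle markers, at 33.3 to 46.8 and 52.7 to 63.1 FPKM, Rgs5 rose (1 of 3 measured of 9). Of rod markers 0 of 10 were called with the block, of the measured endothelial markers 0 of 3, of Schwann and oligodendrocyte markers 0 of 2 and of microglia and macrophage markers 0 of 1. The part of these cells in the S100 differences was not tested. More RNA per cell and more cells of a type cannot be told apart in these samples.

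S100 transcripts are short, at 498 to 1484 bases for the longest coding transcript of each member, beside a median of 3142 over the genes of the table. The 535 other protein-coding genes with transcripts under 1000 bases had a median deviation from their mean of −0.22, −0.28, 0.12 and 0.030 (log2) in WT 1, 3, 4 and 5. In cKO 1, 3, 4 and 5 it was 0.14, −0.14, 0.23 and 0.14, higher than in WT in every pair. With each library corrected for transcript length, S100a6 differed by 0.75, S100a4 by 0.44, S100a13 by 0.37 and S100b by 0.36. S100a10 went from 0.32 to 0.21, S100a11 from 0.27 to 0.16, S100a16 from 0.21 to 0.11 and S100a1 from 0.20 to 0.091, each by over 1.5 times. With the block S100a4 passed (adjusted p = 0.0284) while S100a6 (0.0931) and S100b (0.0785) did not. Over 81 genes annotated as TEC or sense intronic, which report unspliced and unclassified RNA, the mean log2 level was 2.59, 2.76, 2.27 and 2.005 in WT and 2.22, 2.46, 1.86 and 1.64 in cKO, lower in cKO in every pair. Fitted with that mean as a covariate and no block, the differences were 0.96 for S100a6, 0.43 for S100a4 and 0.24 for S100b, and 0 members passed. In the 6 libraries with Xist alone S100a6 differed by 0.95, S100a4 by 0.38 and S100b by 0.28, and 0 members passed.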

How the data were processed

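Müller cell RiboTag RNA from 8 retina samples was analysed from 1 table of FPKM that the authors deposited, with 1 column per library. The submitters' processing notes name STAR, edgeR, GRCm38 and mm10 without versions or roles. The counting, annotation, strand setting, gene filter and fragments per library are not given in the sources used here, so no counting interval was computed. Per the labels' protocols, libraries were directional, from poly(A) RNA. Values were taken as log2(FPKM + 0.5), whose fold changes understate those of low genes. The test of cKO against WT was that of limma (version 3.58.1, R 4.3.3), with a linear model and eBayes with a trend. It was two-sided, with Benjamini-Hochberg correction over 12339 genes and a threshold of 0.05. The code was also run on simulated data in which genes varied independently of one another, unlike the S100 genes here. That run does not bear on calls among genes that vary together. After group means were removed, WT and cKO libraries of equal number correlated across genes at 0.261 to 0.591 and others at −0.479 to 0.211. Each of the 8 libraries correlated best with its own number, and every equal-number r was over 0.1, the limit used, so the numbers were taken to pair the samples. The labels do not state the pairing. The fit with the block has 3 residual degrees of freedom, and that without it 6. Positions and lengths are from GENCODE mouse release 21 (M21). The members and lists were chosen with earlier results of these data known. The genes named were all members, Nfe2l2, the list genes that passed (otherwise the 4 with the smallest p with the block), Anxa2, Anxa11, Cacybp, Ahnak and Ager, and the 5 genes best correlated with each member, clone names left out. Not every gene named by this rule is reported here. The alternatives were pseudocounts of 0.1 and 1, a minimum mean of 5 FPKM, 3 scalings, eBayes without a trend, library weights, the block, and leaving out libraries or pairs. The length correction (a spline with 4 degrees of freedom), the unspliced-RNA covariate and the libraries with Xist were added after the data were seen.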

Additional observations from a re-analysis of the deposited data

How the results depend on the processing

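Of 208 member values under 26 alternatives each, 207 kept their direction and 7 passed the threshold, each of them in a fit with the block. The minimum mean, eBayes without a trend and the block leave the difference itself unchanged, so its direction could not reverse there. The length correction gives the same difference with and without the block. All alternatives reuse the same libraries, so the 207 are not separate agreements. Without pairing, the count of S100 members past the threshold was 0 in each of the 8 fits that left out 1 library and under each pseudocount, filter, scaling and weighting tried. Over all genes it was 0 in these 8 fits too, 1 with library weights and 1 in the libraries with Xist alone. With the replicate block, which pairs the libraries, 3 members and 1305 genes passed, and leaving out 1 pair gave 0 to 2 members and 402 (without pair 1), 606 (3), 524 (4) and 821 (5) genes. The fits with 0 members were those without pair 1 and without pair 5. With the block and the length correction, 1 member and 968 genes passed. With the block, 4 filament and membrane partners, 4 signalling and folding partners and 8 other EF-hand genes passed, and 0 of each without it. With the block and the unspliced-RNA covariate 0 genes passed. In that fit, which leaves 2 residual degrees of freedom, S100b was at −0.79 (SE 0.86) and Nfe2l2 at 0.81, each reversed. The covariate was lower in cKO in all 4 pairs, so within pairs it and genotype can hardly be told apart. No scaling moved the median of all genes by over 0.1. The number of fragments behind a value is unknown, which limits what can be said of S100a4 and S100a13, the lowest members.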

Other observations

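The measured genes beside the first group of S100 genes on chromosome 3 had an r from −0.609 to 0.641 with the mean profile of the S100 genes of that chromosome. Within 250000 bases of a measured member, 8 other genes were in the table, all on 1 side of the first group: Crtc2, Dennd4b, Gatad2b, Slc27a3, Ints3, Ilf2, Snapin and Chtop. Chtop, a chromatin protein 1536 bases from S100a1, was at a mean of 99.5 FPKM in WT and 110.2 in cKO. Its log2 levels had an r of −0.005 with the mean profile of the 7 S100 genes of chromosome 3. Of the 8 neighbours, Snapin, a protein of vesicle fusion, had the highest r (0.641) and Gatad2b the lowest (−0.609). An r over 0.8 was found for 0 of the 8 and for 4.13% of all genes, so that count cannot set the neighbours apart from other genes. The S100 genes of chromosome 3 themselves, which make up that profile, had an r of at least 0.912, and S100b of chromosome 10 had 0.602. By genotype 4 of the 8 neighbours had a higher mean in cKO, with a median difference of −0.044, and 1, the coactivator Crtc2, was called with the block (−0.41, adjusted p = 0.0276). These genes were chosen for their position after the values of the S100 genes had been seen, and the r are given without a test.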
